A study of Mus musculus with 15 samples.

Results

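The ATP-binding cassette (ABC) transporter genes were described in colon RNA of a mouse model of colitis-associated cancer. Members were the genes of the count table named Abca to Abcg with a number and at most 1 further letter. This gave 50 genes of the 56859 in the table, and 42 of the 50 had enough counts to be tested. The matching rule used gene names.

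ABC transporters bind and hydrolyse ATP and use the energy to move drugs, conjugates, sterols, phospholipids or metabolites across membranes. In the gut epithelium Abcb1a and Abcg2 pump drugs and toxins back into the lumen, Abcc3 passes conjugates towards the blood, and Abcg5 and Abcg8 form a dimer that returns sterols to the lumen. Abca1 and Abcg1 load cholesterol from macrophages and other cells onto lipoproteins, and the ABCE and ABCF proteins lack a membrane domain and act on ribosomes.

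All animals were male C57BL/6J mice of 6 to 10 weeks. The model combines azoxymethane (AOM), a colon carcinogen, at 10 mg/kg on day 0 with dextran sulfate sodium (DSS), an agent that injures the epithelium, at 2.5% in the water on days 7 to 11, 28 to 32 and 49 to 53. The 5 groups had 3 libraries each. APX3330, an inhibitor of the redox function of APE1/Ref-1, was given to the APX3330 group by injection, 25 mg/kg daily during each DSS period, and no sampling day is stated. Saline was injected in its place in the groups saline D27, saline D48 and saline D100, which the labels place at days 27, 48 and 100. In the titles D48 is cycle 1 and D100 is cycle 2, yet DSS had been given in 2 periods by day 48. The titles of saline D27 and of APX3330 name no cycle. Control libraries were labelled as wild type only, while the protocol shared by all samples gives AOM to every mouse, so the treatment of Control is unsettled. APX3330 and day therefore cannot be told apart. Whether each library is a separate animal is not labelled. The p-values therefore describe only how these libraries vary, which may be technical, and comparisons that name the same group share its libraries.

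Total counts per library lay between 13548661 and 17919613. Some libraries held transcripts of other tissues. Summed exocrine pancreas markers reached 33969 and 8296 CPM (counts scaled to library size) in saline D48 replicates 2 and 3, and squamous epithelium markers 842 CPM in saline D100 replicate 1 and 885 and 416 CPM in Control replicates 1 and 3. Squamous markers also stood at 98 CPM in saline D48 replicate 2 and at most at 5.42 CPM in the remaining libraries. The runs without the squamous libraries left out saline D100 replicate 1 and Control replicates 1 and 3 and kept saline D48 replicate 2. Skeletal muscle markers stood at 1231 and 558 CPM in Control replicates 1 and 3 and at most at 28.5 CPM in the 13 other libraries. Hoxd13, a gene whose level follows position along the gut and which was chosen after its values were seen, averaged 95.6 ± 36.2 CPM in APX3330, 90.4 ± 3.53 in saline D27, 89.6 ± 16.0 in D48, 63.7 ± 29.5 in D100 and 242 ± 13.9 in Control (SD, n = 3 each, as for every mean given). The 12 colonocyte markers had counts in every group, and none was at 0.

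Promoter sequence is shown for 3 loci of lipid exporters and a multidrug pump whose genes are described in detail. RefSeq promoter windows (GRCm38.p6, 250 bases before a gene's start to 50 after it) were found for 38 of the 50 genes, and the stretch before the start is printed 5′ to 3′ on the gene's strand. In the Abca1 promoter (chr4:53159896-53160145, minus strand) capitals mark TGACCG and TAACC with 4 bases of any kind between them, the letters of the Abca1 DR4 element bound by liver X receptors, 67 to 53 bases before the start. These letters, searched on both strands in the 250 bases before the start, occur in 4 of 32851 windows, or 0.0122%. They were taken from the known element of Abca1 itself, so this share does not give the frequency of DR4 elements in general.
Abca1: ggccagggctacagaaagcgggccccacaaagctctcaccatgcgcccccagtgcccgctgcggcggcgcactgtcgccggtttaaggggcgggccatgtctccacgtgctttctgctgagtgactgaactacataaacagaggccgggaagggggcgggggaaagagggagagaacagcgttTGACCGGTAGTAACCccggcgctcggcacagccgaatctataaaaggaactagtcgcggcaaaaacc
Abcg5 and Abcg8 start head to head 109 bases apart, and the stretch between their starts (chr17:84683012-84683120) is printed on the minus strand, the strand of Abcg5. Capitals mark AGATAA, the letters bound by GATA factors, which begin 52 and 22 bases before the Abcg5 start. At least 1 AGATAA stands in 9.99% of windows and at least 2 in 0.938%.
Abcg5 and Abcg8: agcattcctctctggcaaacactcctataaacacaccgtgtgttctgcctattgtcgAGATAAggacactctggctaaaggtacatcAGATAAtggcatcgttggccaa
In the Abcb1b promoter (chr5:8797897-8798146, plus strand) capitals mark CCAAT on either strand, at 87 and 66 bases before the start, and the GC box GGGCGG at 48 bases. CCAAT occurs in 33.8% of windows and GGGCGG in 32.7%, both strands searched, and none of the marked motifs overlap.
Abcb1b: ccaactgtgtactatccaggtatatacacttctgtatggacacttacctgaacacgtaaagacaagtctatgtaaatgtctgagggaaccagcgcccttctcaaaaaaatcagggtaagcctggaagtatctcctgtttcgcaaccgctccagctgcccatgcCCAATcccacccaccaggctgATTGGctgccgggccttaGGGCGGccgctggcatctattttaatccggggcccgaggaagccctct
A match of letters describes the sequence and does not show binding.

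Per kilobase of exon, Abcb1a was the most abundant ABC gene over all 15 libraries, at 69.3 CPM per kb. It was followed by the conjugate exporter Abcc3 at 49.0, the translation factor Abcf1 at 31.8, the peroxisomal fatty acid importer Abcd3 at 25.0 and Abcf2 at 22.5 CPM per kb. Exon length here joins the exons of all transcripts of a gene. For Abcd3 it is 6593 bases, against 3489 in the longest coding transcript, so ranks can depend on the length used. The order at the top differed between groups. Abcb1a led Abcc3 in APX3330, at 81.0 ± 24.8 against 59.6 ± 9.53 CPM per kb, in saline D27, at 47.2 ± 8.13 against 41.0 ± 4.21, and in Control, at 132 ± 19.8 against 49.9 ± 1.69. Abcc3 stood above Abcb1a in saline D48, at 38.9 ± 6.98 against 35.2 ± 14.7 CPM per kb, and in saline D100, at 55.7 ± 7.38 against 50.6 ± 2.17. Outside Control these 2 genes lay within about 1 SD of each other. Abcg2, at 6.92 CPM per kb and far below Abcb1a, ranked 15 of the members, and the canalicular pump Abcc2, at 0.481 CPM per kb, was near the lower end of the tested genes. In all, 41 of the 50 members averaged at least 1 CPM.

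**Figure D1:**
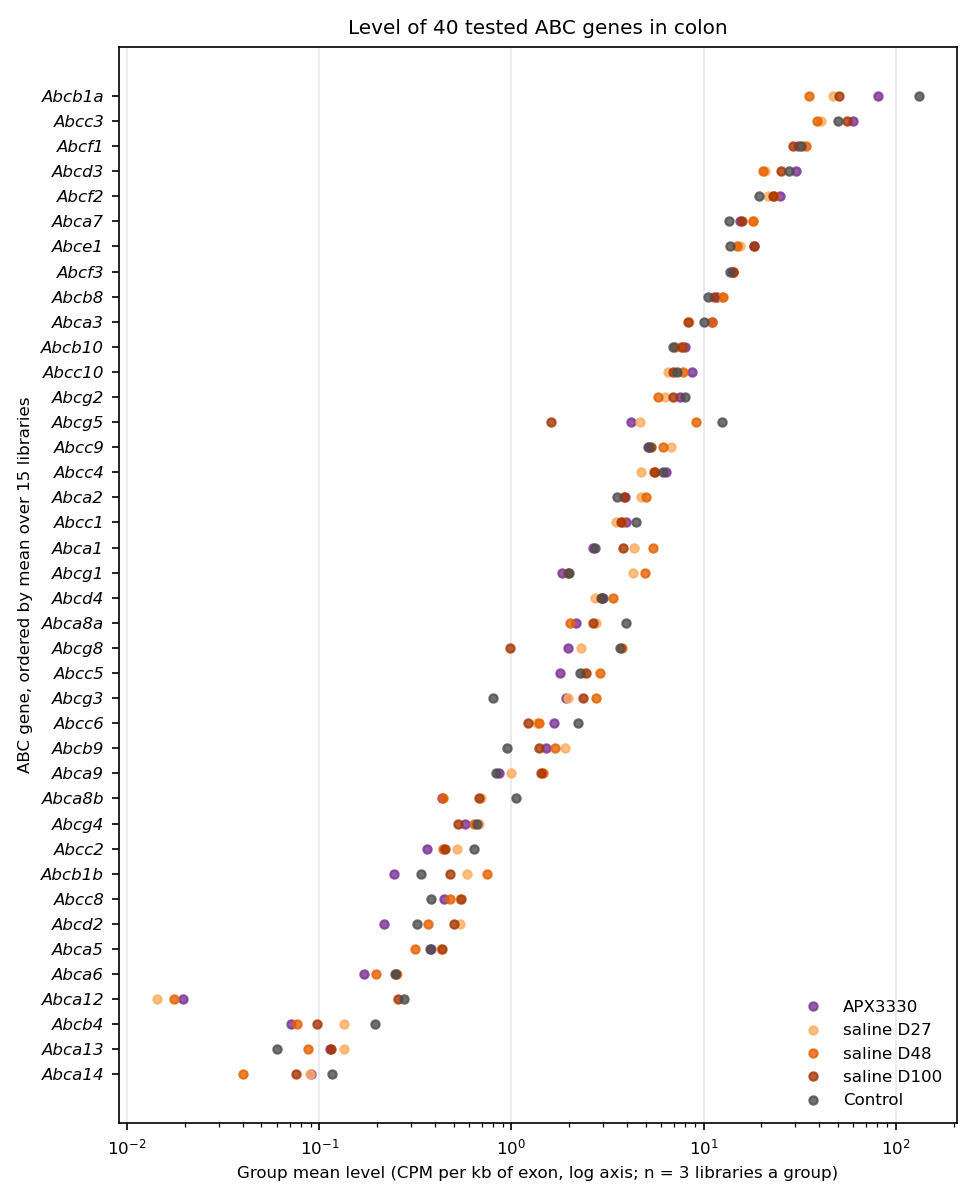
Mean level of 40 of the 42 tested ABC genes in APX3330, saline D27, saline D48, saline D100 and Control, in CPM per kb of exon on a log axis, ordered by the mean over 15 libraries. Group means lie furthest apart for Abca12 and Abcg5, and the Abcf3 points nearly coincide.

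Abcb1a alone made up 15.2% to 22.6% of all ABC counts in the APX3330 libraries, 11.3% to 15.5% in saline D27, 7.65% to 13.8% in D48, 13.0% to 15% in D100 and 26.8% to 33.3% in Control. The summed level of all ABC genes averaged 2221 ± 276 CPM in APX3330, 1874 ± 37.2 in saline D27, 1873 ± 164 in D48, 1976 ± 78.8 in D100 and 2411 ± 104 in Control. Every saline library lay below every Control library in this sum, and 1 of 3 APX3330 libraries lay above them.

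Over the 5 groups, 23 of the 42 tested members were called by edgeR's F test, or 54.8%, with a Benjamini-Hochberg adjusted p below 0.05, beside 37.3% of all 18038 genes tested, and 11 members were called without the squamous libraries. Those called in at least 1 of the 10 pairwise comparisons numbered 25, the additional 2 being Abcc1 and Abcc10, and 17 were called in none. Median log2 changes of all genes lay between -0.01 and 0.02 in these comparisons. Member counts rested in part on single libraries and on those with other tissues, and they are given with and without them.

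In saline D27 against Control 13 members were called, 8 higher and 5 lower, or 31.0% beside 19.5% of all genes, and the median member change was 0.04. The count was 6 without saline D27 replicate 2, 8 without saline D27 replicate 1, 8 without Control replicate 1 and 7 without Control replicate 3. In saline D48 against Control 14 were called, 9 higher and 5 lower, or 33.3% beside 27.3%, with a median of 0.07, and the count was 6 without the pancreatic libraries. In saline D100 against Control 9 were called, 5 higher and 4 lower, which is 21.4% beside 21.9%, with a median of 0.00, and the count was 5 without Control replicate 3. In APX3330 against Control 7 were called, 3 higher and 4 lower, or 16.7% beside 15.3%, with a median of -0.02, and the count was 4 without APX3330 replicate 2 or without Control replicate 3. When the squamous libraries were left out, leaving 1 Control library that is assumed to vary like the other groups, these counts were 1 for D27, 4 for D48, 3 for D100 and 0 for APX3330. The shares at D100 and with APX3330 were near the background of all genes.

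In APX3330 against saline D27 8 members were called, 5 higher and 3 lower, or 19% beside 9.08% of all genes, with a median of -0.15. That count was 3 without saline D27 replicate 1, saline D27 replicate 2 or APX3330 replicate 3, and 5 without APX3330 replicate 2. In APX3330 against saline D48 12 were called, 5 higher and 7 lower, or 28.6% beside 19.7%, with a median of -0.10, and 3 were called without the pancreatic libraries, which leaves 1 saline D48 library. In saline D100 against saline D48 8 were called, 3 higher and 5 lower, or 19% beside 13.6%, with a median of -0.02. That count was 5 without saline D100 replicate 3, 5 without the pancreatic libraries and 5 without the squamous libraries. In saline D100 against saline D27 3 were called, 1 higher and 2 lower, or 7.14% beside 3.08%, with a median of -0.03, and the count was 0 without saline D27 replicate 1, saline D27 replicate 2 or saline D100 replicate 3 and 1 without saline D100 replicate 2 or without the squamous libraries. It was 5 with the DESeq2 test and 6 with no filter on low counts.

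In APX3330 against saline D100 edgeR called 0 of the 42 members, beside 0.504% of all genes, while 13 had an unadjusted p below 0.05. The DESeq2 test called 2 of them, Abca1 and Abcb1b, and edgeR called 6 when no filter on low counts was used. The smallest p belonged to Abcb1b, with a log2 change of -0.96 (SE 0.234, adjusted p = 0.0778). In saline D48 against saline D27 edgeR likewise called 0 members, beside 1.35% of all genes, while 7 had an unadjusted p below 0.05. There DESeq2 called Abca3 alone, and edgeR without the filter called 2. Abca3 changed by 0.39 (SE 0.116, adjusted p = 0.112). With 3 libraries a group these results do not show that the levels were equal.

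**Figure D2:**
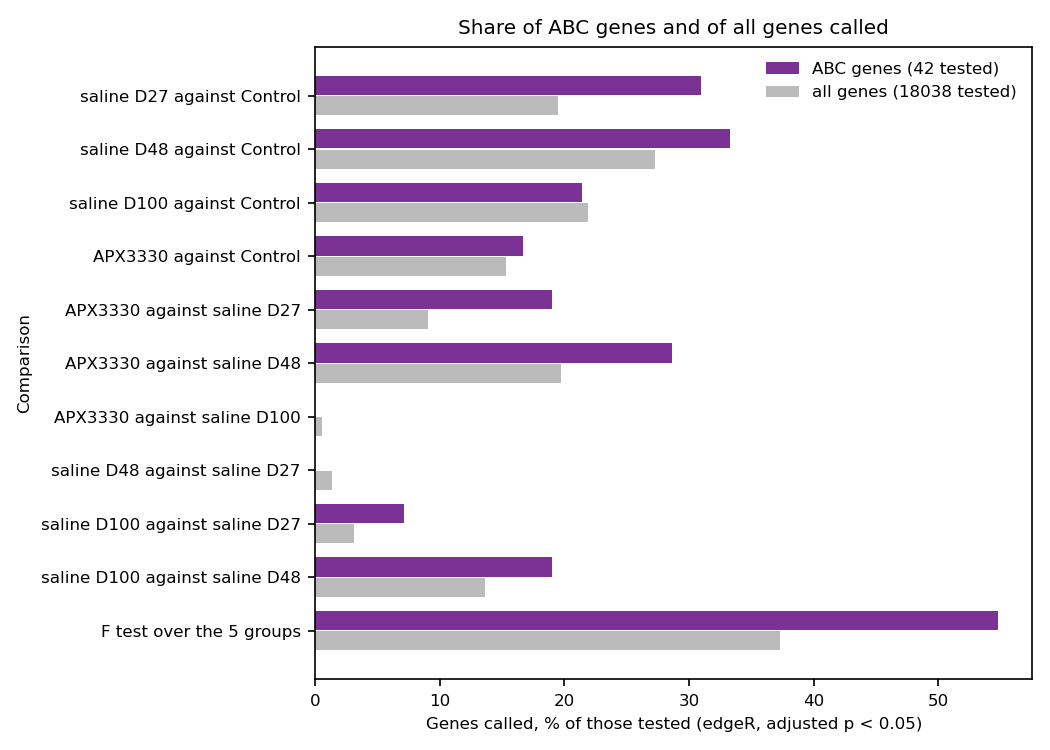
Share of the 42 tested ABC genes (purple) and of all 18038 tested genes (grey) with an adjusted p below 0.05 in each comparison, in percent. The ABC share is highest in the F test, at 54.8%, and it is close to the grey bar in saline D100 against Control, at 21.4% beside 21.9%.

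**Figure D3:**
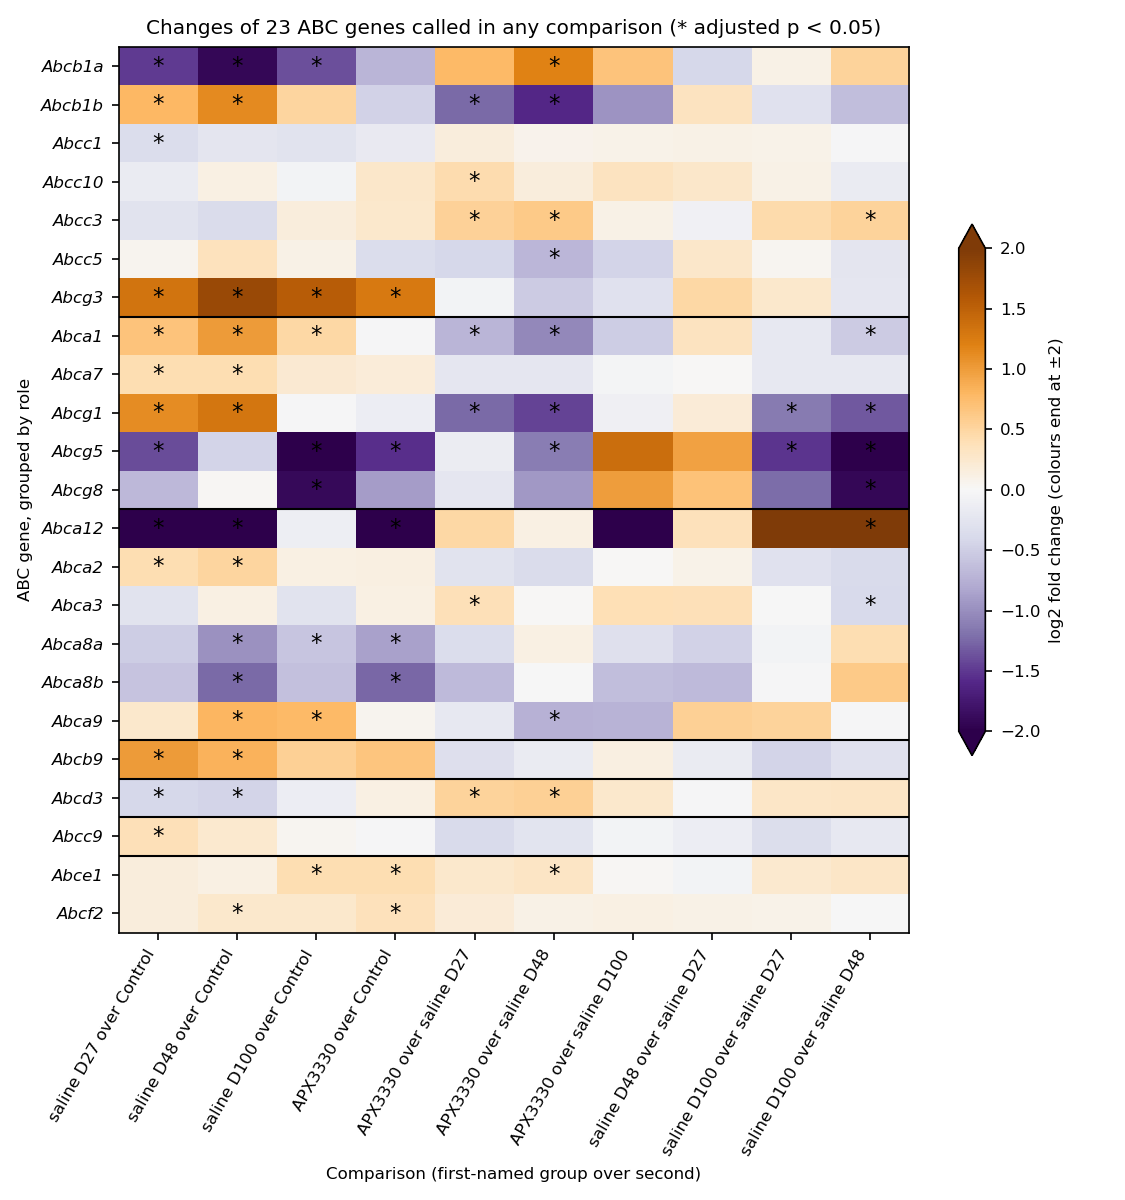
log2 change of 23 of the 25 ABC genes called in at least 1 comparison, grouped by role, with the first-named group over the second; stars mark an adjusted p below 0.05 and colours end at 2 in either direction. Abca1, Abcg1 and Abcb1b are higher in saline D27 and D48 than in Control and lower in APX3330 than in those saline groups, and Abcb1a has the opposite colours.

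Abcb1a and Abcb1b, which encode the mouse forms of the multidrug pump P-glycoprotein, moved in opposite directions in saline D27 and D48 against Control and in APX3330 against saline D48. Abcb1a, the main form of the gut epithelium, had 299, 464 and 568 CPM in the APX3330 libraries, against 614, 732 and 831 CPM in Control. It had 297, 210 and 269 CPM in saline D27, 285, 135 and 158 in D48 and 264, 282 and 285 in D100. All 12 libraries of the model lay below the lowest Control library. Abcb1a fell in saline D27 (log2 change -1.49, SE 0.254, adjusted p = 0.00129), in D48 (-1.91, SE 0.257, adjusted p = 0.000125) and in D100 (-1.39, SE 0.253, adjusted p = 0.00123), each against Control. In APX3330 against Control its change was -0.71 (SE 0.249, adjusted p = 0.0666), which was not called by edgeR.

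Set against the saline days, every APX3330 library lay above every saline library in Abcb1a. The rise was called against saline D48 (1.20, SE 0.252, adjusted p = 0.00436), and not against D27 (0.78, SE 0.25, adjusted p = 0.0619) or D100 (0.68, SE 0.25, adjusted p = 0.256). With no filter on low counts edgeR called Abcb1a in APX3330 against Control, D27 and D100 as well, while DESeq2 called none of these. With the pancreatic libraries left out, the change against D48 was 0.64 (adjusted p = 0.216), with the remaining D48 library at 285 CPM. Without the squamous libraries the change in D100 against Control was -1.38 (adjusted p = 0.0617). The summed level of 12 colonocyte markers was 11920 to 16834 CPM in APX3330, 16976 to 18175 in saline D27, 15583 to 18029 in D48, 13493 to 15015 in D100 and 18621 to 21243 in Control. Of these markers 3 fell and 1 rose in D27, 4 fell in D48, 6 fell and 1 rose in D100, and 5 fell and 1 rose in APX3330, against Control. Of all genes 19.5%, 27.3%, 21.9% and 15.3% were called there. Lypd8 was the largest part of the sum, at 5685 to 9410 CPM, and single markers differed. Slc26a3 had 313, 696 and 892 CPM in APX3330, 504, 276 and 361 in D48 and 1138, 1593 and 1257 in Control. In the same groups Slc9a3 had 169, 262 and 618 CPM, 92.5, 72.6 and 57.8 CPM, and 78.7, 102 and 87.7 CPM. Summed goblet cell markers were 47181 to 77830 CPM in APX3330, 51204 to 64123 in saline D27, 26705 to 49826 in D48, 57714 to 82295 in D100 and 9797 to 10765 in Control. Between groups fewer cells of a type and less RNA per cell cannot be told apart in RNA from whole tissue, and the part of colonocyte markers, goblet markers or Hoxd13 in these changes was not tested.

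Abcb1b was far less abundant, at 1.76, 1.87 and 2.28 CPM in APX3330, against 4.74, 5.16 and 4.22 CPM in saline D27 and 6.02, 5.26 and 6.62 CPM in D48. It had 3.96, 4.10 and 3.46 CPM in D100 and 3.02, 2.99 and 2.13 CPM in Control. The lowest saline library of any day thus lay above the highest Control library, and APX3330 overlapped Control. Abcb1b rose in saline D27 (0.79, SE 0.227, adjusted p = 0.0239) and saline D48 (1.13, SE 0.227, adjusted p = 0.00193) against Control. It fell in APX3330 against saline D27 (-1.25, SE 0.232, adjusted p = 0.00835) and saline D48 (-1.60, SE 0.232, adjusted p = 0.000499). The call in saline D27 against Control was lost without saline D27 replicate 1, saline D27 replicate 2 or Control replicate 3 (adjusted p from 0.0637 to 0.101), and without the squamous libraries the changes in D27 and D48 were 0.63 (adjusted p = 0.319) and 0.98 (adjusted p = 0.0968).

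Abcb1a counts were 170 to 249 times those of Abcb1b in the APX3330 libraries, 40.6 to 63.7 times in saline D27, 23.9 to 47.3 in D48, 66.6 to 82.5 in D100 and 203 to 390 in Control. The APX3330 and Control ranges overlapped, and the 9 saline libraries lay below both. The transcripts are close relatives: 15.5% of the 50-base stretches of Abcb1a also occur in Abcb1b, and 18.0% of those of Abcb1b in Abcb1a. How reads shared by both were counted is not given, so single values of either gene are uncertain. A noncoding gene on the opposite strand also covers 10.1% of the Abcb1a exon bases, and the use of strand in counting is not stated.

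Abcc3, which exports glucuronides and bile acid conjugates across the basolateral membrane, had 295, 323 and 400 CPM in APX3330, 226, 260 and 214 in saline D27, 264, 217 and 185 in D48, 351, 270 and 330 in D100 and 275, 283 and 295 in Control. APX3330 libraries did not overlap those of D27 or D48. Abcc3 rose in APX3330 against saline D27 (0.54, SE 0.142, adjusted p = 0.0296) and saline D48 (0.62, SE 0.142, adjusted p = 0.00775), and in saline D100 against saline D48 (0.52, SE 0.142, adjusted p = 0.0256). Against Control its changes ran from -0.36 to 0.26 and edgeR called none, while DESeq2 and edgeR without the filter called it lower in D48. The call against D27 was lost without any of the 3 saline D27 libraries or APX3330 replicate 2 or 3 (adjusted p from 0.0568 to 0.127), and that of D100 against D48 without saline D48 replicate 2 or 3 or saline D100 replicate 1 or 3 (0.0630 to 0.110). Without the pancreatic libraries the rises over D48 were 0.36 in APX3330 (adjusted p = 0.286) and 0.27 in D100 (adjusted p = 0.481).

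Abcg3, a rodent relative of the drug pump Abcg2, had 5.67, 7.80 and 6.97 CPM in APX3330, 7.81, 5.99 and 7.32 in saline D27, 7.74, 7.06 and 14.6 in D48 and 8.55, 7.5 and 9.03 in D100, against 2.06, 3.43 and 3.00 CPM in Control. Each library of the 4 other groups exceeded every Control library. It rose against Control in saline D27 (1.32, SE 0.282, adjusted p = 0.00501), saline D48 (1.79, SE 0.283, adjusted p = 0.000381), saline D100 (1.56, SE 0.283, adjusted p = 0.00119) and APX3330 (1.27, SE 0.283, adjusted p = 0.0077), and it was the 1 member higher in all 4. With the squamous libraries left out, the changes were 0.98 to 1.5 and none was called (adjusted p from 0.0582 to 0.278). Summed T and B cell markers were 61.0 to 84.4 CPM in APX3330, 105 to 215 in saline D27, 81.6 to 404 in D48, 77.4 to 97.7 in D100 and 45.6 to 53.4 in Control, with the highest value in the library that was also highest in Abcg3. Of the 7 markers 2, 6, 7 and 3 rose against Control in APX3330, D27, D48 and D100, beside 7.16%, 10.2%, 14.3% and 11.4% of all genes. None of the markers was at 0, and their part in the Abcg3 change was not tested.

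Abcc1, a glutathione conjugate exporter, had 51.2, 55.8 and 51.1 CPM in saline D27 against 66.2, 68.7 and 66.4 in Control and fell there (-0.35, SE 0.0993, adjusted p = 0.0231), a call lost without saline D27 replicate 1 or 3 or any of the Control libraries (adjusted p from 0.0563 to 0.0824). Abcc1 had 51.5, 60.1 and 57.8 CPM in D48 and 58.9, 53.5 and 55.2 in D100, also below every Control library, and was not called there. In APX3330 it had 53.3, 55.3 and 69.2 CPM and overlapped Control. The nucleotide exporter Abcc5 had 19.1, 19.9 and 18.1 CPM in APX3330 against 26.3, 29.6 and 36.3 in saline D48 and fell there (-0.69, SE 0.161, adjusted p = 0.00789), with a change of -0.47 (adjusted p = 0.243) without the pancreatic libraries. Abcc10, named after its values were seen because it was called, rose in APX3330 against saline D27 (0.43, SE 0.129, adjusted p = 0.0498). It had 56.5, 56.1 and 67.3 CPM in APX3330 and 47.8, 42.3 and 43.4 in D27, and no runs with libraries left out are given for it. Of the remaining tested pumps edgeR called none in any comparison. DESeq2 and edgeR without the filter called Abcc6 in D100 against Control, and edgeR without the filter also called Abcg2 in D48 against Control and in APX3330 against D48, and Abcc4 in APX3330 against D27.

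The breast cancer resistance pump Abcg2 averaged 61.2 ± 13.9 CPM in APX3330, 51.5 ± 4.75 in saline D27, 47.0 ± 13.5 in D48, 56.7 ± 10.3 in D100 and 65.7 ± 9.62 in Control. Its widest change was -0.48 (SE 0.196, adjusted p = 0.0813), in saline D48 against Control, where libraries overlapped. Abcc4, which exports cyclic nucleotides and prostaglandins, averaged 40.8 ± 12.7 CPM in APX3330, 30.1 ± 1.86 in saline D27, 35.7 ± 1.28 in D48, 35.2 ± 4.69 in D100 and 39.5 ± 1.32 in Control. Saline D27 libraries lay below Control without overlap, at a change of -0.39 (SE 0.163, adjusted p = 0.108). Abcc2, an apical conjugate pump, lay between 2.23 and 7.19 CPM in all libraries, and Abcc6 between 4.27 and 14.9 CPM. Of the 11 tested efflux genes 1 was called in APX3330, 4 in D27, 3 in D48 and 2 in D100 against Control. These are 9.09%, 36.4%, 27.3% and 18.2%, beside 15.3%, 19.5%, 27.3% and 21.9% of all genes, so only the D27 share lay above that of all genes.

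**Figure D4:**
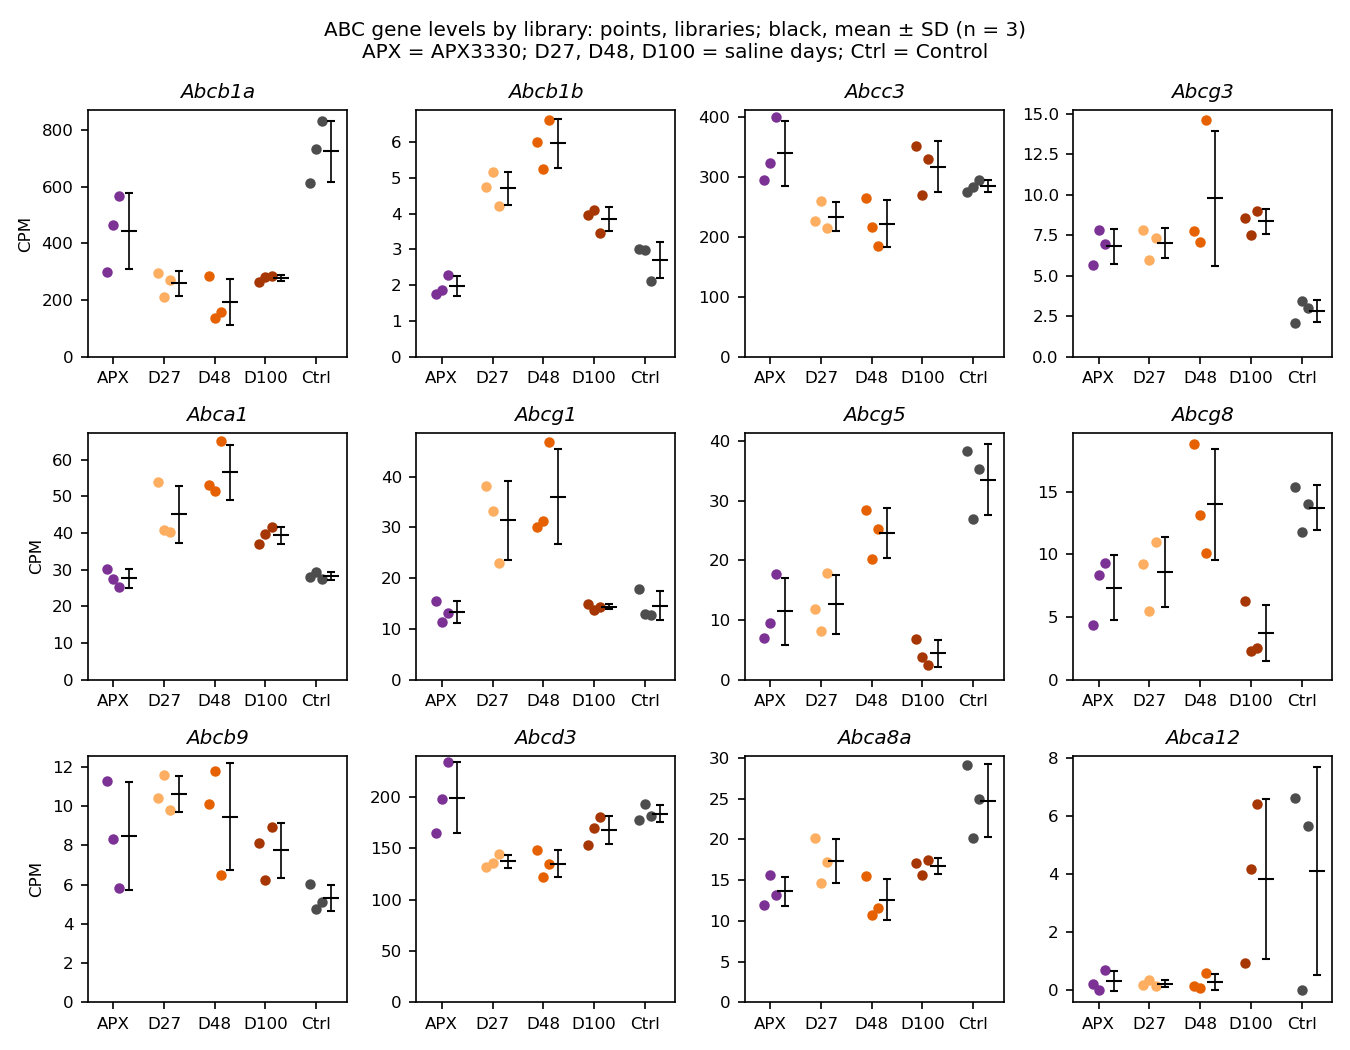
Level of 12 ABC genes in each library, in CPM; coloured points are libraries and black bars the mean ± SD of 3. Abca1 and Abcg1 are highest in saline D27 and D48, with APX3330 at the level of Control, Abcb1a is highest in Control, and Abca12 has high points in saline D100 and in 2 Control libraries.

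The cholesterol exporters Abca1 and Abcg1 were both higher at the earlier saline days, and the APX3330 libraries stood at the level of Control. Abca1, which lipidates apolipoprotein A1, had 30.2, 27.3 and 25.2 CPM in APX3330, 54.0, 40.8 and 40.3 in saline D27, 53.2, 51.4 and 65.2 in D48, 36.9, 39.6 and 41.5 in D100 and 27.9, 29.4 and 27.3 in Control. Each saline library exceeded every APX3330 and Control library. Abca1 rose against Control in D27 (0.68, SE 0.127, adjusted p = 0.00239), D48 (1.00, SE 0.128, adjusted p = 8.86e-05) and D100 (0.48, SE 0.128, adjusted p = 0.0142). It fell in APX3330 against D27 (-0.71, SE 0.128, adjusted p = 0.00759) and D48 (-1.04, SE 0.128, adjusted p = 0.000147) and in D100 against D48 (-0.53, SE 0.126, adjusted p = 0.0129). APX3330 against Control gave -0.03 (SE 0.129, adjusted p = 0.895), and APX3330 against D100 gave -0.51 (SE 0.128, adjusted p = 0.0867).

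The Abca1 call in D100 against Control was lost without saline D100 replicate 3 or Control replicate 3 (adjusted p = 0.0542 at the lowest and 0.0570 at the highest) and that in D100 against D48 without saline D48 replicate 3 (-0.42, adjusted p = 0.0586). Without the squamous libraries the changes against Control were 0.60 in D27 (adjusted p = 0.133) and 0.45 in D100 (adjusted p = 0.260), and that of D100 against D48 was -0.48 (adjusted p = 0.0803). With the pancreatic libraries left out, D100 against D48 gave -0.44 (adjusted p = 0.184). The calls in D48 against Control and in APX3330 against D27 and D48 were made under every alternative run.

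Abcg1, which passes cholesterol to high-density lipoprotein, had 15.5, 11.3 and 13.2 CPM in APX3330, 38.2, 33.2 and 22.9 in saline D27, 30.0, 31.3 and 46.8 in D48, 14.8, 13.8 and 14.4 in D100 and 17.9, 13.0 and 12.8 in Control. In D27 and D48 each library exceeded all libraries of the other 3 groups. Abcg1 rose against Control in D27 (1.11, SE 0.210, adjusted p = 0.00239) and D48 (1.31, SE 0.210, adjusted p = 0.000434). It fell in APX3330 against D27 (-1.24, SE 0.211, adjusted p = 0.00626) and D48 (-1.44, SE 0.211, adjusted p = 0.000526), and in D100 against D27 (-1.13, SE 0.210, adjusted p = 0.0155) and D48 (-1.33, SE 0.210, adjusted p = 0.00119). The changes against Control in D100 and APX3330 were -0.03 and -0.13, and neither was called. The call of D100 against D27 was lost without saline D27 replicate 1 or 2 or saline D100 replicate 2 or 3 (adjusted p from 0.0544 to 0.0768). With the squamous libraries left out, D27 against Control gave 1.26 (adjusted p = 0.0617) and D100 against D27 gave -1.15 (adjusted p = 0.0574).

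The summed level of 7 macrophage markers was 241 to 312 CPM in APX3330, 320 to 458 in saline D27, 491 to 570 in D48, 370 to 517 in D100 and 173 to 241 in Control, with none of the 7 at 0. Of the 7, 2 rose in APX3330, 5 in D27, 6 in D48 and 7 in D100 against Control, beside 7.16%, 10.2%, 14.3% and 11.4% of all genes. In APX3330 3 fell against D27 and 5 against D48, beside 4.37% and 10.3% of all genes. At D100 all 7 were above Control while Abcg1 stood at 14.3 ± 0.503 CPM, against 14.6 ± 2.86 CPM in Control. Adipocyte markers summed to 13.5 to 32.4 CPM in APX3330, 40.6 to 145 in saline D27, 47.3 to 78.3 in D48, 66.4 to 107 in D100 and 24.5 to 58.2 in Control. The part of either cell type in the Abca1 and Abcg1 changes was not tested.

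The sterol exporter genes Abcg5 and Abcg8, whose shared promoter is printed above, were lowest in saline D100. Abcg5 had 7.03, 9.54 and 17.7 CPM in APX3330, 11.9, 8.13 and 17.9 in saline D27, 28.5, 20.2 and 25.3 in D48, 6.85, 3.85 and 2.41 in D100 and 38.4, 26.9 and 35.3 in Control. APX3330, D27 and D100 lay below Control without overlap, and D48 overlapped it. Against Control, Abcg5 fell in D27 (-1.40, SE 0.352, adjusted p = 0.0119), D100 (-2.94, SE 0.385, adjusted p = 0.000101) and APX3330 (-1.55, SE 0.355, adjusted p = 0.0089), and its change in D48 was -0.44 (SE 0.343, adjusted p = 0.365). It also fell in APX3330 against D48 (-1.11, SE 0.354, adjusted p = 0.0382) and in D100 against D27 (-1.53, SE 0.381, adjusted p = 0.0413) and D48 (-2.49, SE 0.382, adjusted p = 0.00104).

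Several of these Abcg5 calls rested on single libraries. D27 against Control was lost without saline D27 replicate 2 (-1.17, adjusted p = 0.0688). APX3330 against D48 was lost without saline D48 replicate 1 or 3 or APX3330 replicate 1 or 2 (adjusted p from 0.0896 to 0.134). D100 against D27 was lost without any 1 of the saline D27 libraries or saline D100 replicate 2 or 3 (0.0647 to 0.155). Without the squamous libraries the changes against Control were -1.10 in D27 (adjusted p = 0.202) and -1.24 in APX3330 (adjusted p = 0.186), and D100 against D27 gave -2.01 (adjusted p = 0.0607). Without the pancreatic libraries APX3330 against D48 gave -1.32 (adjusted p = 0.132). D100 against Control and D100 against D48 were called under every alternative.

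Abcg8 had 4.39, 8.33 and 9.31 CPM in APX3330, 9.20, 5.51 and 11.0 in saline D27, 18.8, 13.1 and 10.1 in D48, 6.29, 2.31 and 2.48 in D100 and 15.4, 11.8 and 14.0 in Control. Saline D100 lay below D48 and Control without overlap. Abcg8 fell in D100 against Control (-1.90, SE 0.389, adjusted p = 0.00278) and D48 (-1.92, SE 0.389, adjusted p = 0.00539), under every alternative. In D27 and APX3330 against Control it changed by -0.68 (SE 0.366, adjusted p = 0.215) and -0.90 (SE 0.370, adjusted p = 0.112), without overlap of libraries, and edgeR without the filter called the APX3330 change. Abcg5 had 1.14 to 1.90 counts per Abcg8 count in APX3330, 1.29 to 1.62 in saline D27, 1.52 to 2.50 in D48, 0.970 to 1.67 in D100 and 2.27 to 2.51 in Control. The 2 genes share 82 exon bases on opposite strands, which is 3.02% of Abcg5 and 2.19% of Abcg8. Summed colonocyte markers, given above, were 13493 to 15015 CPM at D100 and 11920 to 16834 in APX3330, against 18621 to 21243 in Control. Hoxd13 averaged 63.7 ± 29.5 CPM at D100, 95.6 ± 36.2 in APX3330, 90.4 ± 3.53 in D27 and 89.6 ± 16.0 in D48, against 242 ± 13.9 in Control. The part of colonocyte markers or Hoxd13 in the Abcg5 and Abcg8 changes was not tested.

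Abca7, a phospholipid exporter related to Abca1, had 115, 139 and 113 CPM in saline D27 and 135, 112 and 119 in D48, against 86.6, 94.4 and 94.9 CPM in Control. Its values in D100, at 113, 98.5 and 111 CPM, and in APX3330, at 115, 97 and 101 CPM, also exceeded every Control library. Abca7 was not called against Control in those groups. It rose in D27 (0.41, SE 0.104, adjusted p = 0.0127) and D48 (0.41, SE 0.104, adjusted p = 0.00851) without overlap. The D27 call was lost without saline D27 replicate 2 or Control replicate 1 (adjusted p = 0.0560 and 0.0731), and without the squamous libraries both changes were 0.36 and neither was called (adjusted p = 0.259 and 0.204). The canalicular exporters of liver were scarce. Abcb4, the phosphatidylcholine floppase of bile, averaged 0.670 ± 0.197 CPM in APX3330, 1.26 ± 0.344 in saline D27, 0.720 ± 0.137 in D48, 0.918 ± 0.743 in D100 and 1.82 ± 0.818 in Control, and was not called. The bile salt export pump Abcb11 had 10 counts over all libraries, 6 of them in Control, and was not tested. Abcg4 was not called either and lay between 1.83 and 5.02 CPM.

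Among the other ABCA lipid transporters, Abca8a and Abca8b were lower than in Control. Abca8a, which has been linked to cholesterol and organic anion export, had 12.0, 15.6 and 13.2 CPM in APX3330, 20.1, 14.7 and 17.2 in saline D27, 15.5, 10.7 and 11.6 in D48 and 17.1, 15.6 and 17.5 in D100, against 29.1, 20.1 and 25.0 CPM in Control. It fell in D48 (-0.97, SE 0.177, adjusted p = 0.00102), D100 (-0.57, SE 0.176, adjusted p = 0.0309) and APX3330 (-0.86, SE 0.177, adjusted p = 0.00455), and its change in D27 was -0.51 (SE 0.175, adjusted p = 0.0515), which DESeq2 called. Its neighbour Abca8b had 3.85, 3.67 and 2.21 CPM in APX3330 and 3.31, 3.67 and 2.85 in saline D48, against 7.98, 8.40 and 6.92 in Control, and fell in both (APX3330 -1.26, SE 0.249, adjusted p = 0.00356, and D48 -1.25, SE 0.248, adjusted p = 0.00189). Abca8b had 5.52, 5.10 and 4.84 CPM in D27 and 6.08, 3.78 and 5.27 in D100, also below every Control library, and was not called there. These 2 genes share few 50-base stretches, 1.89% of those of Abca8a and 1.43% of those of Abca8b.

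The Abca8a call in D100 was lost without any 1 of the saline D100 libraries or Control replicate 1 or 3 (adjusted p from 0.0630 to 0.152). With the squamous libraries left out, Abca8a gave -0.69 in D48 (adjusted p = 0.113), -0.30 in D100 (adjusted p = 0.593) and -0.57 in APX3330 (adjusted p = 0.291), and Abca8b gave -1.38 in APX3330 (adjusted p = 0.0557). With the pancreatic libraries left out, the changes in D48 were -0.67 for Abca8a (adjusted p = 0.106) and -1.23 for Abca8b (adjusted p = 0.0666). Smooth muscle markers summed to 4337 to 5676 CPM in APX3330, 7287 to 9803 in saline D27, 4999 to 5963 in D48, 5100 to 6724 in D100 and 10067 to 10350 in Control. Against Control 7, 0, 6 and 7 of 8 fell in APX3330, D27, D48 and D100, beside 8.18%, 9.36%, 13% and 10.5% of all genes. Fibroblast markers summed to 1775 to 2095, 2032 to 2483, 3233 to 3691, 1915 to 2052 and 2974 to 3510 CPM in APX3330, D27, D48, D100 and Control. None of these markers was at 0, and their part in the changes of Abca8a and Abca8b was not tested.

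Abca9, a neighbour in the same gene cluster, went the other way. It had 5.54, 8.67 and 6.70 CPM in APX3330, 8.20, 6.54 and 9.24 in saline D27, 13.4, 9.53 and 12.3 in D48, 11.3, 8.78 and 14.4 in D100 and 6.56, 7.81 and 5.66 in Control. Abca9 rose in D48 (0.81, SE 0.232, adjusted p = 0.0169) and D100 (0.78, SE 0.233, adjusted p = 0.0246) against Control and fell in APX3330 against D48 (-0.75, SE 0.231, adjusted p = 0.0335). The first call was lost without saline D48 replicate 1 or 3 or Control replicate 3 (adjusted p from 0.0510 to 0.0718), and the next without saline D100 replicate 3 or Control replicate 1 or 3 (0.0746 to 0.124). The last was lost without saline D48 replicate 1 or 3 or APX3330 replicate 1 or 3 (0.0909 to 0.120). None of the 3 was called without the squamous or pancreatic libraries that bear on it (adjusted p from 0.0656 to 0.454).

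Abca2, a lipid transporter of late endosomes, had 39.0, 40.2 and 39.2 CPM in saline D27 and 41.2, 38.6 and 45.9 in D48, against 27.9, 30.3 and 31.0 CPM in Control. It rose in D48 (0.50, SE 0.139, adjusted p = 0.0149), and in D27 (0.41, SE 0.139) with an adjusted p just under the threshold that was lost without any 1 of the 6 libraries (0.0838 to 0.148). The D48 call was lost without saline D48 replicate 3 or Control replicate 1 (adjusted p = 0.0554 and 0.0657). Abca3, the surfactant phospholipid transporter of lung lamellar bodies, had 101, 91.9 and 117 CPM in APX3330, 85.0, 72.1 and 79.0 in saline D27, 122, 94.8 and 92.3 in D48, 77.7, 78.7 and 78.1 in D100 and 85.9, 102 and 97.7 in Control. It rose in APX3330 against D27 (0.39, SE 0.116, adjusted p = 0.0466) and fell in D100 against D48 (-0.40, SE 0.116, adjusted p = 0.0335). The first call was lost without any 1 of the 6 libraries (0.0576 to 0.177), and the other without saline D48 replicate 1, any of the saline D100 libraries (0.0837 to 0.168) or the squamous libraries (0.118), and with only the 2 groups compared (0.0548).

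Abca12, a lipid exporter of keratinocytes, was near 0 in most libraries. It had 0.203, 0 and 0.670 CPM in APX3330, 0.167, 0.344 and 0.124 in saline D27, 0.132, 0.0666 and 0.581 in D48, 0.918, 4.17 and 6.40 in D100 and 6.63, 0 and 5.66 in Control. A library with no count allows up to 0.2 CPM in APX3330 replicate 2 and 0.219 CPM in Control replicate 2, which is 3 counts. The Control level came from replicates 1 and 3, the libraries with squamous and skeletal muscle transcripts. In saline D100 the replicate with squamous markers, replicate 1 at 842 CPM, had the lowest Abca12 level, and replicates 2 and 3, with 1.35 CPM of these markers each, had the higher ones. The fit called Abca12 lower than Control in D27 (-4.25, SE 1.23, adjusted p = 0.0253), D48 (-3.89, SE 1.19, adjusted p = 0.0240) and APX3330 (-3.78, SE 1.19, adjusted p = 0.0429) and higher in D100 than in D48 (3.79, SE 1.19, adjusted p = 0.0466). Libraries of D27, D48 and APX3330 overlapped those of Control. The 3 calls against Control were lost without Control replicate 1 or 3, the D27 and APX3330 calls also without any 1 library of those groups and the D48 call without saline D48 replicate 1 or 2 (adjusted p from 0.0553 to 0.139). The call of D100 against D48 was lost without any of the saline D48 libraries or saline D100 replicate 2 or 3 (0.0608 to 0.147). Without the squamous libraries the sign against Control turned, as the 1 Control library left has no count. Abca5, Abca6, Abca13 and Abca14 were not called by edgeR, and DESeq2 called Abca13 in D27 against Control. Their group means ran from 0.238 CPM for Abca14 to 4.98 CPM for Abca5.

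Abcb9, a lysosomal peptide transporter related to the Tap genes, had 10.4, 11.6 and 9.80 CPM in saline D27 and 10.1, 11.8 and 6.5 in D48, against 6.05, 4.75 and 5.13 CPM in Control. It rose in D27 (1.00, SE 0.258, adjusted p = 0.0142) and D48 (0.83, SE 0.258, adjusted p = 0.0258). Abcb9 had 8.12, 6.22 and 8.95 CPM in D100, also above every Control library, and 11.3, 8.33 and 5.83 in APX3330. It was not called against Control in either. The D27 call was lost without saline D27 replicate 2 or Control replicate 2 (0.0522 and 0.0592), and the D48 call without saline D48 replicate 1 or 2 or Control replicate 2 or 3 (0.0716 to 0.112). The mitochondrial Abcb8 and Abcb10 and the lysosomal cobalamin transporter Abcd4 were not called, with changes against Control from -0.12 to 0.25.

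Of the peroxisomal transporters, Abcd3 had 165, 198 and 234 CPM in APX3330, 132, 136 and 144 in saline D27, 148, 122 and 135 in D48, 153, 170 and 180 in D100 and 177, 193 and 181 in Control. D27 and D48 libraries lay below all those of APX3330 and Control. Abcd3 fell in D27 (-0.42, SE 0.115, adjusted p = 0.0194) and D48 (-0.45, SE 0.115, adjusted p = 0.00931) against Control, and rose in APX3330 against D27 (0.53, SE 0.115, adjusted p = 0.0138) and D48 (0.56, SE 0.115, adjusted p = 0.00375). The D27 call was lost without saline D27 replicate 1 or 2 or Control replicate 2 or 3 (adjusted p from 0.0503 to 0.0714), and that of APX3330 against D27 without saline D27 replicate 1 or 2 or APX3330 replicate 3 (0.0565 to 0.0631). Without the pancreatic libraries the changes were -0.31 in D48 against Control (adjusted p = 0.276) and 0.43 in APX3330 against D48 (adjusted p = 0.156). Without the squamous libraries those against Control were -0.50 in D27 (adjusted p = 0.144) and -0.53 in D48 (adjusted p = 0.0858).

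Abcd2 averaged 1.30 ± 0.546 CPM in APX3330, 3.21 ± 1.18 in saline D27, 2.19 ± 0.136 in D48, 2.99 ± 1.01 in D100 and 1.91 ± 0.830 in Control, and was not called by edgeR. DESeq2 and edgeR without the filter called it in APX3330 against D27. Of 11 genes of peroxisomal fatty acid oxidation 6 fell in D48 and 1 in D100 against Control, or 54.5% and 9.09%. Of all genes 13% and 10.5% fell there, and 27.3% and 21.9% were called in either direction. In APX3330 and D27 against Control edgeR called 0, with 2 and 4 at an unadjusted p below 0.05. In APX3330 2 rose against D27 and 3 against D48, or 18.2% and 27.3%. Of all genes 4.71% and 9.41% rose there, and 9.08% and 19.7% were called in either direction. Slc25a17, the peroxisomal cofactor carrier and the gene of that list with the smallest F test p, had 62.4, 57.3 and 59.9 CPM in APX3330, against 44.7, 45.3 and 40.7 CPM in saline D48 (0.46, SE 0.0955, adjusted p = 0.0042).

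Of the sulfonylurea receptors, the vascular subunit gene Abcc9 had 58.4, 48.1 and 62.7 CPM in saline D27, against 45.2, 44.6 and 40.5 CPM in Control, and rose there (0.38, SE 0.120, adjusted p = 0.0381). That call was lost without saline D27 replicate 1 or 3 or any of the Control libraries (adjusted p from 0.0669 to 0.129). Abcc9 had 48, 52.2 and 53.8 CPM in D48, also above every Control library, and was not called there. The D100 and APX3330 libraries overlapped those of Control. The 4 pericyte markers, which belong to the cells best known for Abcc9, summed to 217 to 233 CPM in saline D27 and 219 to 233 CPM in Control. Rgs5 was the largest of them, at 140, 139 and 163 CPM in saline D27 and 149, 141 and 145 CPM in Control. The part of pericytes in the Abcc9 change was not tested. The islet subunit gene Abcc8 was not called and lay between 2.06 and 6.82 CPM.

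Among the soluble ABC proteins of translation, Abce1, which splits ribosomes after termination, had 96.9, 119 and 116 CPM in APX3330 and 116, 113 and 98.8 in saline D100, against 81.4, 88.3 and 77.3 CPM in Control. It rose without overlap in D100 (0.41, SE 0.104, adjusted p = 0.0107) and APX3330 (0.42, SE 0.104, adjusted p = 0.0129), and against D48 in APX3330 (0.30, SE 0.103, adjusted p = 0.0499), where libraries overlapped. The D100 call was lost without Control replicate 3 (adjusted p = 0.0558) and that of APX3330 against Control without APX3330 replicate 2 or Control replicate 1 or 3 (0.0503 to 0.0584). The call against D48 was lost without saline D48 replicate 1 or 2 or APX3330 replicate 2 or 3 (0.135 to 0.175). Abcf2 had 64.4, 66.3 and 61.2 CPM in APX3330 and 59.5, 57.8 and 61.5 in saline D48, against 50.2, 51.1 and 47.9 CPM in Control, and rose by 0.36 in APX3330 (SE 0.0927, adjusted p = 0.0160) and 0.26 in D48 (SE 0.0927, adjusted p = 0.0474). Abcf2 had 56.4, 58.8 and 52.1 CPM in D27 and 67.7, 58.3 and 52.1 in D100, also above every Control library, and was not called there. The D48 call was lost without any 1 of the 6 libraries (0.0757 to 0.134) and the APX3330 call without APX3330 replicate 2 or Control replicate 3 (0.0599 and 0.0615). Abcf3 was among the steadiest members, with group means from 49.0 to 50.9 CPM, and Abcf1 means lay between 129 and 150 CPM. With the squamous libraries left out, no call of Abca2, Abcb9, Abcc1, Abcc9, Abce1 or Abcf2 against Control was made (adjusted p from 0.16 to 0.454). With the pancreatic libraries left out, the D48 comparisons of Abca2, Abcb9, Abce1 and Abcf2 described above were not called (0.0909 to 0.294).

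The 8 members that were not tested had few counts. Abcb6 had 83 counts over all 15 libraries, Abca4 74, Abca15 35, Abca17 18, Abcb11 10 and Abcc12 2. Abcb5 and Abca16 had none, which allows up to 0.0131 CPM over the pooled libraries, counting error only. In Abcb6, 55.2% of exon bases overlap another gene on the same strand, and how reads shared with that gene were counted is not given.

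A further 3 ABC proteins carry other symbols and were read beside the family. Tap1 and Tap2, which load antigenic peptides for MHC class I, had 120, 60.4 and 92.5 CPM and 35.9, 20.9 and 27.1 CPM in APX3330. In saline D27 Tap1 had 179, 158 and 117 CPM and Tap2 54.4, 55.2 and 42.2, against 62.8, 40.2 and 51.2 CPM and 23.9, 20.7 and 21.7 CPM in Control. Tap1 rose against Control in D27 (1.56, SE 0.251), D48 (1.53, SE 0.251), D100 (1.31, SE 0.25) and APX3330 (0.82, SE 0.249, where libraries overlapped), with adjusted p from 0.000508 to 0.0365. Tap2 rose in D27 (1.19, SE 0.185), D48 (1.29, SE 0.186) and D100 (0.61, SE 0.186), with adjusted p from 0.000212 to 0.0291, and fell in APX3330 against D27 (-0.85, SE 0.183, adjusted p = 0.0135) and D48 (-0.95, SE 0.183, adjusted p = 0.00263).

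Cftr, the chloride channel of crypts, had 139, 171 and 212 CPM in APX3330, 97.7, 71.2 and 102 in saline D27, 96.5, 73.2 and 67.0 in D48, 121, 157 and 130 in D100 and 105, 122 and 105 in Control. Every APX3330 library exceeded every D27, D48 and Control library. It rose in APX3330 against Control (0.65, SE 0.173, adjusted p = 0.0201), D27 (0.94, SE 0.174, adjusted p = 0.00835) and D48 (1.14, SE 0.175, adjusted p = 0.000695). It also rose in D100 against D48 (0.78, SE 0.174, adjusted p = 0.00852), and fell in D48 against Control (-0.49, SE 0.174, adjusted p = 0.0474). The lower D48 values, 73.2 and 67.0 CPM, came from the libraries with pancreatic transcripts. For Tap1, Tap2, Cftr and the gene lists that follow, calls are of the main fit, and no runs with libraries left out are given.

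Of 16 tested transcription factors known to control ABC genes, 1 rose and 1 fell in APX3330, 0 rose and 3 fell in D27, 1 rose and 3 fell in D48, and 1 rose and 2 fell in D100, against Control. The shares called, 12.5%, 18.8%, 25% and 18.8%, were near the 15.3%, 19.5%, 27.3% and 21.9% of all genes. Nr1i2 (PXR), the xenobiotic receptor that induces Abcb1a, averaged 74.4 ± 8.14 CPM in D27, 79.2 ± 10.0 in D48 and 59.7 ± 3.73 in D100, against 101 ± 5.14 CPM in Control. It fell in these saline groups by 0.44, 0.35 and 0.76 on the log2 scale, with adjusted p from 0.00023 to 0.0275. In APX3330 Nr1i2 had 84.2, 73.8 and 92.1 CPM, also below every Control library, and was not called there. Its partner Rxra fell in all 4 groups against Control, with changes from -0.44 to -0.26 and adjusted p from 0.00246 to 0.0417. Pparg averaged 48 ± 2.34 CPM in APX3330, 32.2 ± 2.65 in D27, 23.6 ± 1.49 in D48, 49.3 ± 3.53 in D100 and 36.2 ± 4.02 in Control, and rose in APX3330 against D27 (0.58, SE 0.105, adjusted p = 0.00813) and D48 (1.03, SE 0.107, adjusted p = 4.6e-05).

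Of 15 tested genes of cholesterol and bile acid handling, 1 rose and 2 fell in APX3330, 3 rose and 2 fell in D27, 4 rose and 2 fell in D48, and 1 rose and 2 fell in D100, against Control. These are 20%, 33.3%, 40% and 20%, beside 15.3%, 19.5%, 27.3% and 21.9% of all genes. Apoe, which encodes an apolipoprotein, had 411, 362 and 304 CPM in APX3330, against 837, 895 and 883 CPM in saline D48, and fell there (-1.28, SE 0.185, adjusted p = 0.000483). It rose in D48 against Control, which had 316, 255 and 316 CPM (1.56, SE 0.187, adjusted p = 5.64e-05). The bile acid importer Slc10a2 had 0.677 to 3.47 CPM in the 12 libraries of the model, against 10.8, 8.91 and 11.0 CPM in Control, and fell in all 4 groups, with changes from -3.35 to -2.08 and adjusted p from 0.000183 to 0.00522. Of 9 tested solute carriers of drugs and organic ions 2 rose and 2 fell in each of the 4 groups against Control, or 44.4%. Slc15a1, the peptide and beta-lactam importer, had 35.3 to 133 CPM in the libraries of the model against 268, 270 and 278 CPM in Control, with changes from -2.07 to -1.37 and adjusted p from 0.000381 to 0.00717. Slco4a1 rose in all 4, with changes from 0.91 to 1.82 and adjusted p from 0.000208 to 0.0168.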

How the data were processed

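RNA of 15 mouse colon samples was sequenced; per the labels' protocols RNA came from an RNeasy kit and libraries from a SMARTer mRNA kit. The values used are whole-number counts per gene, as deposited by the authors, on GRCm38 or mm10 per the submitters' processing notes; for the aligner, counter and strand setting, nothing is given in the sources used here. Groups were taken from the labels. Counts were filtered with filterByExpr and scaled by TMM, and all 15 libraries entered 1 quasi-likelihood fit in edgeR 4.0.16 (R 4.3.3), with Benjamini-Hochberg adjustment over 18038 genes and a threshold of 0.05. Log2 changes are of the first-named group over the second; the SE is the change divided by the square root of F. CPM use TMM-scaled totals, and levels per kb use the joined exons of all transcripts of a gene in GENCODE M21, which matched 50 of 50 members. DESeq2 1.42.0 served as an alternative, beside other scaling, no filter, a replicate block, the 2 groups alone and libraries left out. The fit was tested on simulated data. Genes named with values were the 24 members with the smallest F test p among those with a mean of at least 1 CPM, and 15 chosen pumps and lipid transporters, 29 in all, of which 2 are counted but not reported here; of other lists, up to 3 genes with the smallest p. The members and lists were chosen with earlier results of these data known. Intervals and floors of 3 counts cover counting error only. Figures were drawn with matplotlib 3.10.9.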

Additional observations from a re-analysis of the deposited data

How the results depend on the processing

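The 29 genes chosen for naming, which do not include Abcc10, had 73 called pairs of gene and comparison. Of these 73 pairs, 16 were called under every alternative. With DESeq2 size factors 71 kept their call, with the DESeq2 test 71 and with no filter on low counts 70. The alternatives without libraries that hold other tissues were chosen after seeing the data and leave 1 library in Control or saline D48, which is assumed to vary like the other groups. Without the squamous libraries 12 of 54 calls were kept, and the counts of called members were 0 in APX3330, 1 in D27, 4 in D48 and 3 in D100 against Control, 1 in D100 against D27, 5 in D100 against D48 and 11 in the F test. There Abca12 gave 4.72 in D27, 5.07 in D48 and 5.20 in APX3330 against Control, values that depend on the prior count because the Control library left has no count. Without the pancreatic libraries 14 of 34 calls were kept, and the counts were 6 in D48 against Control, 3 in APX3330 against D48 and 5 in D100 against D48. With no filter the counts were 6 in APX3330 against D100, 2 in D48 against D27 and 6 in D100 against D27, and with the DESeq2 test 2, 1 and 5. With only the 2 groups compared, 5 members were called in APX3330 against D27. Apart from what the settings themselves change, the cause was not tested.

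With each library left out in turn, the counts ran from 6 to 10 in D27 against Control, 5 to 9 in D100 against Control, 4 to 9 in APX3330 against Control, 3 to 9 in APX3330 against D27, 0 to 4 in D100 against D27 and 5 to 7 in D100 against D48. Same-numbered libraries shared only a number: their deviations correlated between -0.14 and 0.255. With the replicate block 67 of 73 calls were kept, and the count in APX3330 against D27 was 5. Abca14 had the fewest counts of the genes tested, 111 over all libraries.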
